A study of Mus musculus with 11 samples.

Results

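The genes of transforming growth factor beta (TGF-beta) and bone morphogenetic protein (BMP) signalling are 52 genes chosen by name: ligands, receptors, Smads, inhibitors inside and outside the cell, proteins that hold TGF-beta latent, and the Id genes. A gene was measured by the probe set whose platform annotation gives it as the only symbol, and all 52 had one, with 53 probe sets in all because Smurf2 has 2. Of the 52, 51 passed the filter on low values and were tested, among 16147 genes tested. The exception was Bmp5, a BMP ligand, whose log2 intensities lay between 5.54 and 5.88 in the 11 arrays. Of the 52 genes, 20 were placed in the TGF-beta and activin branch, 22 in the BMP branch, and 10 serve both.

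Expression was read on Affymetrix arrays from MEFs (mouse embryonic fibroblasts) of a C57BL/6 x 129/SvJ background, whose p53 gene carries a stop cassette that Cre removes (p53 LSL/LSL). Cells of all 4 groups were first infected with AdenoCre (24 h, moi 5), which switches p53 back on, and then transfected. Doxorubicin, a DNA-damaging drug, was added 24 h after transfection at 150 nM and left for 12 h. The groups were Pint ASO (3 arrays), control ASO (2 arrays), p53 siRNA (3 arrays) and control siRNA (3 arrays), where Pint ASO is a pool of antisense oligonucleotides against the long non-coding RNA Pint and control ASO is non-targeting. Every group, controls included, was thus restored for p53 and damaged, and no array here shows cells without the drug.

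In this pathway, TGF-beta, activin or BMP dimers bring together type II and type I serine-threonine kinase receptors. The receptors then phosphorylate Smad proteins, which join Smad4 and act on transcription in the nucleus. TGF-beta and activin work mainly through Smad2 and Smad3, and BMPs mainly through Smad1, Smad5 and Smad9. Inhibitory Smads, Smurf ubiquitin ligases and the Ski proteins damp the signal inside the cell, while antagonists such as noggin and follistatin bind the ligands outside it. In fibroblasts the TGF-beta branch is best known for driving matrix production, and the BMP branch for inducing Id genes.

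Array medians lay between 7.31 and 7.38 on the log2 scale. The Pint transcript (Lncpint) averaged 8.54 in Pint ASO and 10.32 in control ASO, a log2 change of -1.78 (SE 0.12, adjusted p = 2.94e-05), and changed by -0.54 with p53 siRNA (SE 0.11, adjusted p = 0.00673). The p53 transcript itself was not analysed here, and its targets Perp, Mdm2 and Ccng1 fell by 1.99, 0.96 and 0.33 with p53 siRNA. All 14 fibroblast markers were above a log2 value of 6 in every array. Their summed level was 16.05 to 16.10 in Pint ASO against 16.34 in control ASO, and 16.55 to 16.56 in p53 siRNA against 16.39 to 16.42 in control siRNA. The smooth muscle markers summed to 14.65 to 14.68 in Pint ASO against 14.74 to 14.78 in control ASO, and to 14.90 to 14.96 in p53 siRNA against 14.82 to 14.90 in control siRNA. Their gene means ran from 6.88 to 13.87 in Pint ASO, so the sum mostly follows the highest genes. Of the 8 tested, 1 was higher and 3 lower with Pint ASO, with changes from -0.40 to 0.54. With p53 siRNA 2 were higher and 1 lower, with changes from -0.87 to 0.30. Of the 14 fibroblast markers 0 were higher and 11 lower with Pint ASO, and 7 were higher and 0 lower with p53 siRNA. Over all probe sets tested 8.49% were higher and 10.7% lower with Pint ASO, and 7.97% and 8.96% with p53 siRNA. The counts of the other marker lists stand beside the same shares. The part of any marker list in the results that follow was not tested. Arrays of whole cultures cannot tell fewer cells of a type from less RNA per cell. The endothelial markers summed to 10.11 to 10.16 in Pint ASO against 9.79 to 9.85 in control ASO. With Pint ASO Kdr (0.77) and Esam (0.55) rose, Tek fell by 0.17, and the defining markers Pecam1 (0.26, adjusted p = 0.0705) and Cdh5 (0.19, adjusted p = 0.286) did not pass the test. They summed to 9.78 to 9.85 in p53 siRNA against 9.77 to 9.78 in control siRNA. The epithelial markers summed to 10.23 to 10.37 in Pint ASO against 10.38 to 10.48 in control ASO. With Pint ASO Cdh1 fell by 0.68, where 0 of the 6 epithelial genes tested were called higher and 1 lower. The markers of macrophages and blood summed to 10.59 to 10.63 in Pint ASO against 10.93 to 10.94 in control ASO, and to 10.17 to 10.26 in p53 siRNA against 10.92 or more in control siRNA. Cd68 fell in both, by 0.47 with Pint ASO and by 1.04 with p53 siRNA. Of the 4 genes of this list tested, 0 were called higher and 1 lower with Pint ASO, where changes ran up to 0.34. With p53 siRNA 0 were higher and 2 lower. The highest gene mean of the list was 9.92 in Pint ASO and 10.39 in control ASO, so 1 gene made up much of the sum.

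The first question was how each knockdown moved the pathway and its branches. A gene was called when its Benjamini-Hochberg adjusted p, over all 26038 probe sets tested, was under 0.05. With Pint ASO, 6 of the 51 genes were higher and 14 lower, 11.8% and 27.5%, where 8.49% and 10.7% of all probe sets were called higher and lower. With p53 siRNA, 7 were higher and 10 lower, 13.7% and 19.6%, where 7.97% and 8.96% of all probe sets were called. Of the 26038 probe sets, 17516 carry 1 symbol, while each gene is 1 probe set, so these shares are unlike measures, here and elsewhere. The median change over the 51 genes was -0.08 with Pint ASO and -0.04 with p53 siRNA, beside medians of 0.00 and 0.01 over all probe sets tested. The study had named TGF-beta signalling as a theme of the genes that changed with Pint ASO on these arrays, so the counts are not independent evidence of it. The counts with Pint ASO were 3 higher and 8 lower when the ASO arrays were fitted alone, and 7 higher and 10 lower when quantile normalization was applied again. The higher calls with p53 siRNA rested on single arrays. Their number was 1 to 4 with any of the 6 siRNA arrays omitted, lowest with control siRNA 1 or p53 siRNA 2 omitted, and 4 with Pint ASO 1 omitted.

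In both knockdowns more genes of the TGF-beta and activin branch than of the BMP branch were called lower. With Pint ASO, 1 of its 20 genes was higher and 9 were lower (5% and 45%). Among the 21 BMP genes tested, 2 were higher and 3 lower (9.52% and 14.3%). With p53 siRNA the TGF-beta and activin branch had 1 higher and 5 lower (5% and 25%). The BMP branch had 4 higher and 2 lower (19% and 9.52%). Over all probe sets 8.49% were higher and 10.7% lower with Pint ASO, and 7.97% and 8.96% with p53 siRNA. The shares of BMP genes called lower lay near these. The counts with Pint ASO moved with the processing. In the TGF-beta and activin branch they were 1 higher and 5 lower with the ASO arrays fitted alone, 1 and 6 with quantile normalization applied again, and 1 and 7 with median centring. In the BMP branch they were 1 higher and 2 lower with the ASO arrays fitted alone and 3 and 2 with quantile normalization applied again. Without the filter, the 4 higher BMP calls with p53 siRNA became 1. The median change of the TGF-beta and activin branch was -0.13 with Pint ASO and -0.07 with p53 siRNA. That of the BMP branch was -0.08 with Pint ASO and -0.01 with p53 siRNA.

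Array by array, the branch medians of the TGF-beta and activin genes were small, and negative in every knockdown array. Relative to the control mean of each gene, the median over these genes was -0.17, -0.16 and -0.11 in the Pint ASO arrays, against 0.01 and -0.01 in the control ASO arrays. In the p53 siRNA arrays it was -0.08, -0.05 and -0.08, against 0.00 in each control siRNA array. Control arrays centre on their own mean by construction, so they do not show the full spread of controls. The knockdown arrays of a comparison share the error of that mean, so their agreement is not independent evidence of an effect. The BMP median was -0.12, -0.09 and -0.03 in the Pint ASO arrays, against -0.03 and 0.03 in the control ASO arrays, so that the lowest control array lay level with the highest Pint ASO array to 2 decimals. It was -0.03, -0.01 and -0.01 in the p53 siRNA arrays, against -0.01, 0.00 and 0.01 in the control siRNA arrays, and the groups met. The difference between the branches was described and not tested, and the sign of the BMP median with p53 siRNA turned to 0.01 with quantile normalization applied again and to 0.02 with median centring. Among the 10 genes that serve both branches, 3 were higher and 2 lower with Pint ASO (30% and 20%). With p53 siRNA 2 were higher and 3 lower (20% and 30%). Over all probe sets the shares were 8.49% and 10.7% with Pint ASO, and 7.97% and 8.96% with p53 siRNA.

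**Figure D1:**
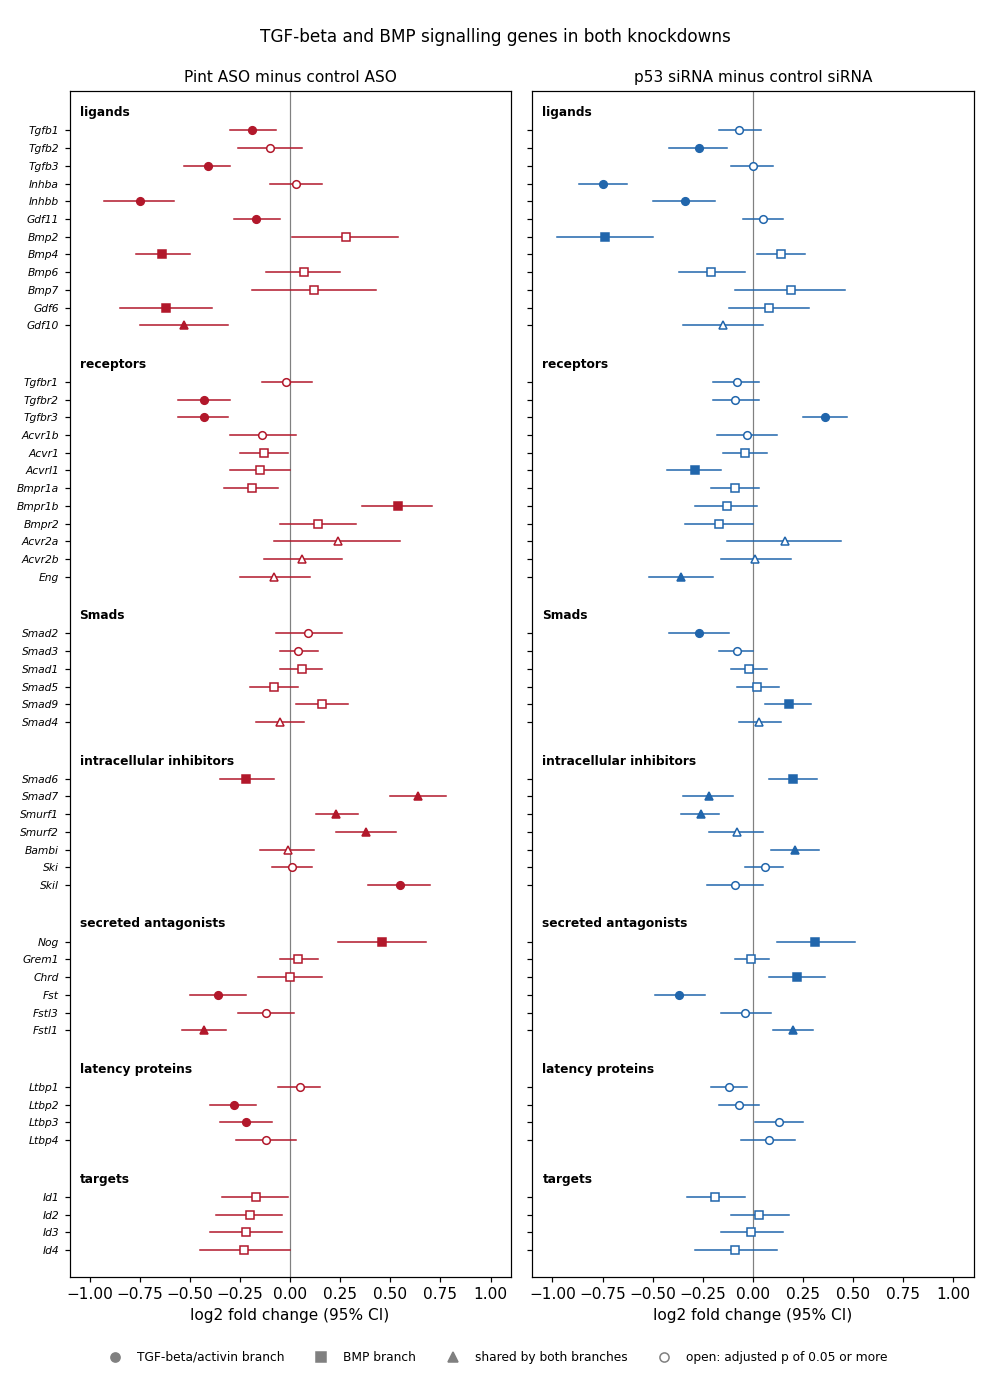
Log2 fold change (horizontal axis) of the 51 tested genes, grouped by role, in Pint ASO minus control ASO (left) and p53 siRNA minus control siRNA (right). Points are estimates and lines are 95% confidence intervals, circles, squares and triangles mark the TGF-beta and activin branch, the BMP branch and genes that serve both, and filled points were called. Filled points among the ligands lie below 0 in both panels, 7 with Pint ASO and 4 with p53 siRNA.

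Every call among the ligand genes was a fall. Of the 12 tested, 7 were lower with Pint ASO (58.3%) and 4 with p53 siRNA (33.3%), beside 10.7% and 8.96% of all probe sets. In either knockdown 0 were higher. Bmp2 (0.28) had an unadjusted p of 0.0416 with Pint ASO, and Bmp4 (0.14) an unadjusted p of 0.0284 with p53 siRNA. The activin chain genes Inhba and Inhbb, whose products dimerise into activins, and the BMP ligand genes Bmp2 and Bmp4 are described first.

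Inhba carried the largest fall with p53 siRNA. Its log2 intensity was 11.68, 11.63 and 11.57 in the p53 siRNA arrays, against 12.39, 12.38 and 12.37 in the control siRNA arrays. Every p53 siRNA array lay below every control array, and the change was -0.75 (SE 0.05, adjusted p = 1.61e-05). How many of all probe sets separate in this way was not counted, so here and below separation adds nothing to the tests. In the other knockdown Inhba was 12.73, 12.70 and 12.60 in the Pint ASO arrays, against 12.71 and 12.59 in the control ASO arrays. Those groups overlapped, and the change was 0.03 (95% confidence interval -0.10 to 0.16, adjusted p = 0.808). Inhba was the single member whose p53 call also held at the B threshold of the study, a log odds B over 3, where the fold-change limits that the supplementary methods add for each contrast were not applied.

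Inhbb fell in both knockdowns. It was 8.25, 8.18 and 8.44 in the Pint ASO arrays, against 9.07 and 9.02 in the control ASO arrays, a change of -0.75 (SE 0.08, adjusted p = 0.000205). It was 9.02, 9.02 and 9.12 in the p53 siRNA arrays, against 9.46, 9.38 and 9.35 in the control siRNA arrays, a change of -0.34 (SE 0.07, adjusted p = 0.00714). Neither pair of groups overlapped. The control ASO arrays, however, lay as low as the p53 siRNA arrays.

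Bmp2, a BMP ligand, fell with p53 siRNA, at 7.18, 7.46 and 7.30, against 8.24, 7.86 and 8.06 in the control siRNA arrays. Each p53 siRNA array lay below each control array, and the change was -0.74 (SE 0.11, adjusted p = 0.00107). In Pint ASO it stood at 8.41, 8.56 and 8.43, against 8.26 and 8.12 in control ASO, higher in each array but short of the threshold (0.28, SE 0.12, adjusted p = 0.144).

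Bmp4 and Gdf6, a related ligand gene of the BMP type, fell with Pint ASO. Bmp4 was 10.42, 10.40 and 10.48 in the Pint ASO arrays, against 11 and 11.14 in the control ASO arrays, a change of -0.64 (SE 0.06, adjusted p = 0.000134). Gdf6 was 7.77, 7.40 and 7.59 in Pint ASO, against 8.17 and 8.24 in control ASO, a change of -0.62 (SE 0.10, adjusted p = 0.00269). Neither gene had overlapping groups. With p53 siRNA, Bmp4 changed by 0.14 (adjusted p = 0.119) and Gdf6 by 0.08 (adjusted p = 0.623).

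**Figure D2:**
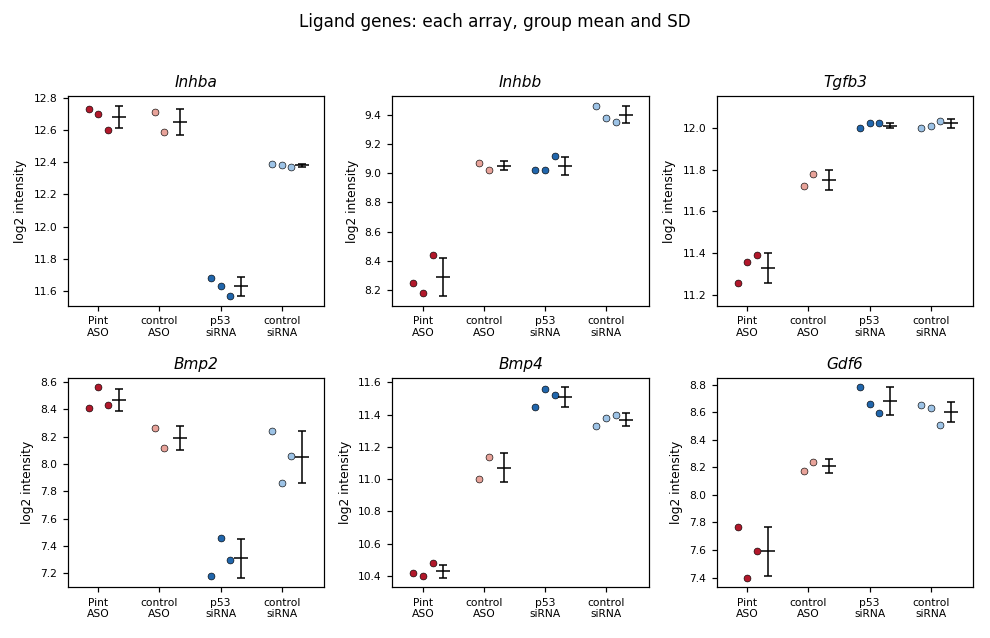
Log2 intensity (vertical axis, scaled for each gene) of 6 ligand genes in each array (points) of the Pint ASO, control ASO, p53 siRNA and control siRNA groups, with group mean and SD (black). Inhba and Bmp2 are low in the p53 siRNA arrays, while Tgfb3, Bmp4 and Gdf6 are low in the Pint ASO arrays and Inhbb is lower in both knockdowns than in their controls.

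Of the 3 TGF-beta genes, Tgfb1 and Tgfb3 were called with Pint ASO and Tgfb2 with p53 siRNA. Tgfb3 was 11.26, 11.36 and 11.39 in the Pint ASO arrays, against 11.72 and 11.78 in the control ASO arrays, with a change of -0.41 (SE 0.05, adjusted p = 0.000636). All 3 Pint ASO arrays lay below both controls, whereas with p53 siRNA the change was 0.00 (95% confidence interval -0.11 to 0.10). Tgfb2 was 9.31, 9.21 and 9.30 in p53 siRNA, against 9.56, 9.46 and 9.63 in control siRNA, a change of -0.27 (SE 0.06, adjusted p = 0.0153), and the groups did not overlap. That call was lost with control siRNA 1, control siRNA 3 or p53 siRNA 2 omitted (adjusted p = 0.0531 to 0.0620), and with Pint ASO the change was -0.10 (adjusted p = 0.419). Tgfb1, which codes for the best studied TGF-beta, was 10.15, 10.14 and 10.22 in Pint ASO, against 10.30 and 10.41 in control ASO, a change of -0.19 (SE 0.05, adjusted p = 0.0381). The groups did not overlap, but the call was lost in 9 of 11 fits that left out 1 array (adjusted p = 0.0502 to 0.204), without the filter (adjusted p = 0.0605) and with either rescaling (adjusted p = 0.0951 and 0.0521). Besides these arrays, the study reported lower Tgfb1 by RT-qPCR with separate Pint ASOs against control ASOs. In p53 siRNA Tgfb1 was 10.29, 10.34 and 10.30, against 10.41, 10.40 and 10.33 in control siRNA, with overlapping groups and a change of -0.07 (adjusted p = 0.411).

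Of the remaining ligand genes, Gdf10, a BMP-like ligand also known as BMP3b, was 7.89, 7.54 and 7.65 in Pint ASO, against 8.23 and 8.22 in control ASO (-0.53, SE 0.10, adjusted p = 0.00488). No arrays overlapped, and the call was lost when the ASO arrays were fitted alone (adjusted p = 0.0562). Gdf11, an activin-like ligand, changed by -0.17 with Pint ASO (SE 0.05, adjusted p = 0.0471), a call lost in 9 of 11 fits that left out 1 array (adjusted p = 0.0659 to 0.165). Bmp6 (0.07 with Pint ASO, -0.21 with p53 siRNA) and Bmp7 (0.12 and 0.19) passed the test in neither.

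Among the 12 receptor and co-receptor genes, 1 was higher (8.33%) and 2 were lower (16.7%) in each knockdown, beside 8.49% and 10.7% of all probe sets with Pint ASO and 7.97% and 8.96% with p53 siRNA. They were different genes except for Tgfbr3. Tgfbr3 codes for betaglycan, a co-receptor that presents TGF-beta to its type II receptor. It was 11.14, 11.13 and 11.03 in the Pint ASO arrays, against 11.55 and 11.53 in the control ASO arrays, a change of -0.43 (SE 0.05, adjusted p = 0.000646). It was 12.01, 11.90 and 11.91 in the p53 siRNA arrays, against 11.58 in each of the 3 control siRNA arrays, a change of 0.36 (SE 0.05, adjusted p = 0.000814). Neither pair of groups overlapped, and the gene was called lower with Pint ASO and higher with p53 siRNA.

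Tgfbr2, the type II TGF-beta receptor gene, was 10.48, 10.56 and 10.59 in Pint ASO, against 10.96 and 10.98 in control ASO (-0.43, SE 0.06, adjusted p = 0.000867). All Pint ASO arrays lay below both controls, and with p53 siRNA the change was -0.09 (adjusted p = 0.299). Bmpr1b, a type I BMP receptor gene, was 8.67, 8.81 and 8.59 in Pint ASO, against 8.24 and 8.06 in control ASO (0.54, SE 0.08, adjusted p = 0.00136). All Pint ASO arrays lay above both controls, and with p53 siRNA the change was -0.13 (adjusted p = 0.248).

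The 2 receptor genes that fell with p53 siRNA are both known from endothelial cells. Eng codes for endoglin, a co-receptor, and was 9.13, 9.10 and 8.96 in p53 siRNA, against 9.45, 9.42 and 9.40 in control siRNA (-0.36, SE 0.07, adjusted p = 0.00599). Acvrl1 codes for ALK1, a type I receptor for BMP9 and BMP10, and was 8.26, 8.16 and 8.41, against 8.57, 8.58 and 8.56 in control siRNA (-0.29, SE 0.06, adjusted p = 0.00876). Neither gene's groups overlapped. With Pint ASO they changed by -0.08 (Eng, adjusted p = 0.570) and -0.15 (Acvrl1, adjusted p = 0.171). Of 7 endothelial markers tested, 0 were called with p53 siRNA, where their median change was 0.06. Over all probe sets 7.97% were higher and 8.96% lower, so 0 calls among 7 markers carry little weight. These markers were low, with gene means of at most 7.46 in p53 siRNA and 7.41 in control siRNA. Any part of endothelial cells in the falls of Eng and Acvrl1 was not tested.

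The other 7 receptor genes, Tgfbr1, Acvr1b, Acvr1, Bmpr1a, Bmpr2, Acvr2a and Acvr2b, were called in neither knockdown. Their changes ran between -0.19 (Bmpr1a, adjusted p = 0.0560) and 0.24 (Acvr2a, adjusted p = 0.309) with Pint ASO, and between -0.17 (Bmpr2, adjusted p = 0.183) and 0.16 (Acvr2a, adjusted p = 0.478) with p53 siRNA.

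**Figure D3:**
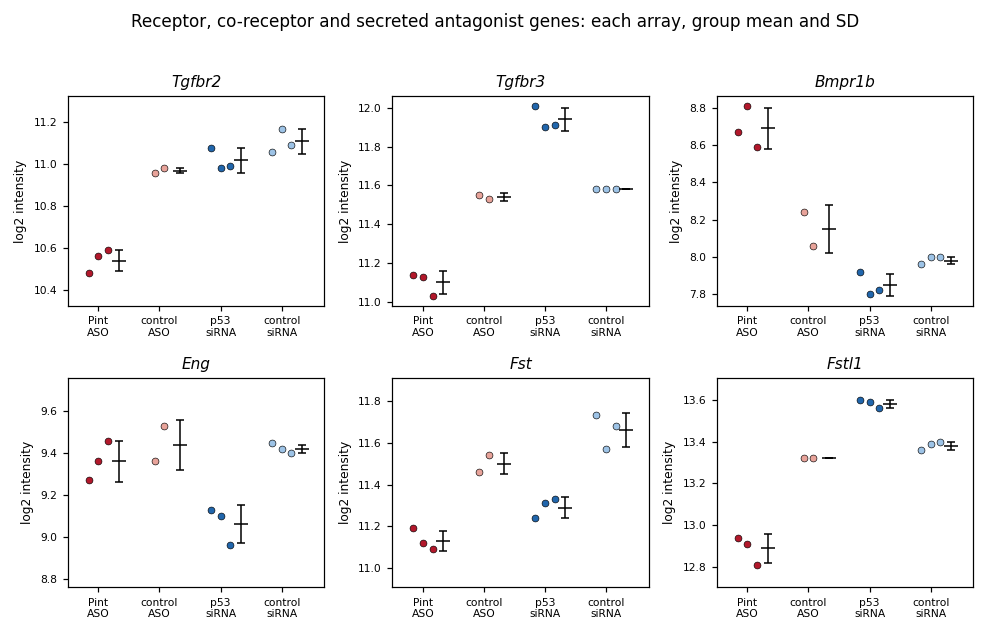
Log2 intensity (vertical axis, scaled for each gene) of the receptor genes Tgfbr2 and Bmpr1b, the co-receptor genes Tgfbr3 and Eng, and the secreted antagonist genes Fst and Fstl1 in each array (points) of the Pint ASO, control ASO, p53 siRNA and control siRNA groups, with group mean and SD (black). Tgfbr3 and Fstl1 are lowest in the Pint ASO arrays and highest in the p53 siRNA arrays, while Fst is below its control in both knockdowns.

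The 6 genes of the signal-carrying Smads moved little. With Pint ASO 0 of them were called, with changes between -0.08 (Smad5) and 0.16 (Smad9, adjusted p = 0.0889), where Smad9 had an unadjusted p of 0.0211. Smad2, which carries TGF-beta and activin signals, was 10.21, 10.35 and 10.35 in p53 siRNA, against 10.61, 10.49 and 10.61 in control siRNA (-0.27, SE 0.07, adjusted p = 0.0202). Smad9, which carries BMP signals, was 8.65, 8.74 and 8.77 in p53 siRNA, against 8.50, 8.51 and 8.62 in control siRNA (0.18, SE 0.05, adjusted p = 0.0477). Groups overlapped for neither gene. Smad2 lost its call with control siRNA 1, control siRNA 3 or p53 siRNA 1 omitted (adjusted p = 0.0721 to 0.0740) and with median centring (adjusted p = 0.0549), and Smad9 lost its call in 8 of 11 fits that left out 1 array (adjusted p = 0.0591 to 0.157). Smad1, Smad3, Smad4 and Smad5 were called in neither knockdown, with changes between -0.08 and 0.06.

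Of the 7 genes of inhibitors that act inside the cell or at the receptor, 4 were higher and 1 lower with Pint ASO (57.1% and 14.3%). With p53 siRNA 2 were higher and 2 lower (28.6% each). Over all probe sets the shares were 8.49% and 10.7% with Pint ASO, and 7.97% and 8.96% with p53 siRNA. Smad7 binds activated receptors and brings Smurf1 and Smurf2, ubiquitin ligases, to them, and Smad6 is the inhibitory Smad with a preference for BMP receptors. Skil and Ski code for nuclear proteins that hold Smad complexes inactive, and Bambi for a decoy receptor without a kinase domain.

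Smad7 had the largest rise with Pint ASO. It was 11.12, 11.26 and 11.32 in the Pint ASO arrays, against 10.62 and 10.56 in the control ASO arrays, a change of 0.64 (SE 0.06, adjusted p = 0.000158), or 1.56-fold. It was 10.12, 10.11 and 10.07 in the p53 siRNA arrays, against 10.35, 10.29 and 10.33 in the control siRNA arrays, a change of -0.22 (SE 0.06, adjusted p = 0.0212). Neither pair of groups overlapped. The p53 call was lost with control siRNA 1 or 3 or p53 siRNA 2 or 3 omitted (adjusted p = 0.0590 to 0.0760).

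Smurf1 followed the same order of groups. It was 11.68, 11.72 and 11.62 in Pint ASO, against 11.45 and 11.43 in control ASO (0.23, SE 0.05, adjusted p = 0.00797). It was 11.03, 11.08 and 11.05 in p53 siRNA, against 11.33, 11.33 and 11.30 in control siRNA (-0.26, SE 0.04, adjusted p = 0.00219). Neither pair of groups overlapped, and the Pint ASO call was lost when the ASO arrays were fitted alone (adjusted p = 0.102).

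Smurf2 was 12.16, 12.33 and 12.29 in Pint ASO, against 11.93 and 11.83 in control ASO (0.38, SE 0.07, adjusted p = 0.00424). All Pint ASO arrays lay above both controls, and the call was lost when the ASO arrays were fitted alone (adjusted p = 0.0573). The second Smurf2 probe set was 9.20, 9.80 and 9.32 in Pint ASO, against 9.03 and 8.92 in control ASO, a change of the same sign that did not pass the test (0.47, SE 0.15, adjusted p = 0.0614). With p53 siRNA the changes were -0.08 (adjusted p = 0.417) and -0.17 (adjusted p = 0.485) on the 2 probe sets.

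Skil was 10.33, 10.37 and 10.37 in Pint ASO, against 9.93 and 9.69 in control ASO, with no overlap (0.55, SE 0.07, adjusted p = 0.000710). With p53 siRNA it changed by -0.09 (adjusted p = 0.398). Ski, its relative, was called in neither knockdown (0.01 with Pint ASO and 0.06 with p53 siRNA).

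Smad6 moved the other way round from Smad7. It was 9.04, 9.20 and 9.23 in Pint ASO, against 9.35 and 9.40 in control ASO (-0.22, SE 0.06, adjusted p = 0.0296). It was 9.61, 9.61 and 9.59 in p53 siRNA, against 9.40, 9.40 and 9.41 in control siRNA (0.20, SE 0.05, adjusted p = 0.0282). The groups overlapped in neither knockdown, although both calls were weak. That with p53 siRNA was lost with any 1 of the 6 siRNA arrays omitted (adjusted p = 0.0707 to 0.0842), and that with Pint ASO with either control ASO array or Pint ASO 1 omitted (adjusted p = 0.0553 to 0.132) and with quantile normalization applied again (adjusted p = 0.0544).

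Bambi was 9.38, 9.43 and 9.40 in p53 siRNA, against 9.15, 9.16 and 9.26 in control siRNA (0.21, SE 0.05, adjusted p = 0.0249). The groups did not overlap, and the call was lost with any p53 siRNA array, control siRNA 1 or control siRNA 2 omitted (adjusted p = 0.0524 to 0.0919). With Pint ASO the change was -0.01 (adjusted p = 0.932).

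**Figure D4:**
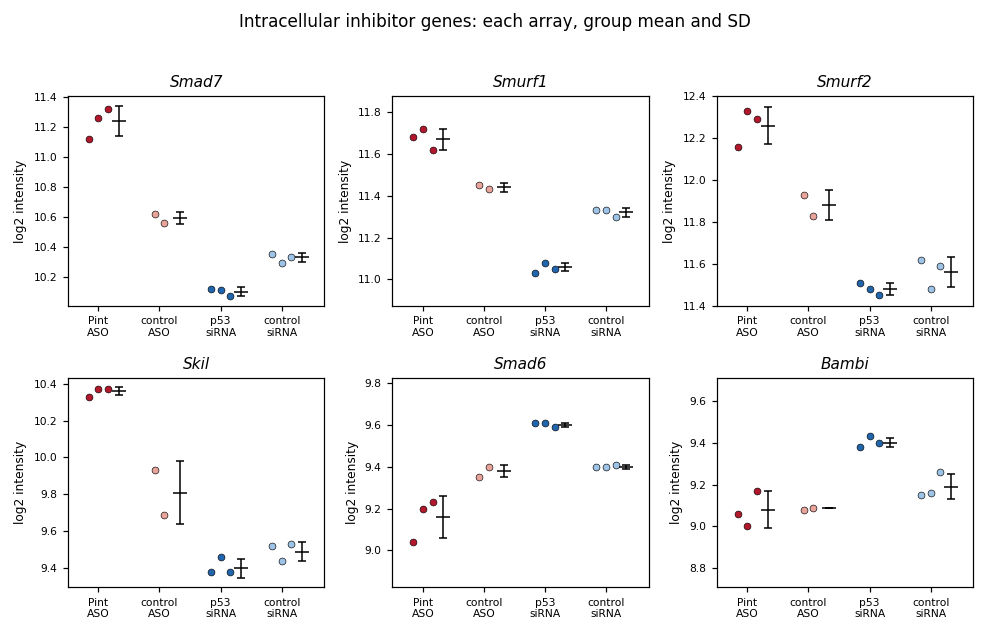
Log2 intensity (vertical axis, scaled for each gene) of 6 genes of intracellular and receptor-level inhibitors in each array (points) of the Pint ASO, control ASO, p53 siRNA and control siRNA groups, with group mean and SD (black). Smad7, Smurf1, Smurf2 and Skil are highest in the Pint ASO arrays, Smad6 is lowest there, and the control ASO arrays lie above the control siRNA arrays for the first 4 genes.

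The promoters of Smad6, Smurf1 and Smurf2 are shown because these genes, which feed back on the pathway, changed with Pint ASO and carry letters of known Smad-binding elements near their start sites. Each runs from 250 bases before to 50 bases after the start site (RefSeq, GRCm38.p6, minus strand, 5′ to 3′), and capitals mark the motifs found.
Smad6 (chr9:64022010-64022309): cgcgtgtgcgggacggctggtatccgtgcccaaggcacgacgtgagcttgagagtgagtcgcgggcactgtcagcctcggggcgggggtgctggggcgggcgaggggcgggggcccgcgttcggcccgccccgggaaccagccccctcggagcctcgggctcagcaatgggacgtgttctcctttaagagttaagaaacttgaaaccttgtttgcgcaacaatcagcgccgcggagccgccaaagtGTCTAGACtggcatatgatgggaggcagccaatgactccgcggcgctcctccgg
Smurf1 (chr5:144965781-144966080): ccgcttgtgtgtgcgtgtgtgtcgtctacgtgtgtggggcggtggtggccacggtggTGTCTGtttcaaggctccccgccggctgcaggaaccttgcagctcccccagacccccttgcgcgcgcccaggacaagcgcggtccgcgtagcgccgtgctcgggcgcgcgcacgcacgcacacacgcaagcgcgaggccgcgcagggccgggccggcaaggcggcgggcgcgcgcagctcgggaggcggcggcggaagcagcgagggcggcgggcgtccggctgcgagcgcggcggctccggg
Smurf2 (chr11:106920666-106920965): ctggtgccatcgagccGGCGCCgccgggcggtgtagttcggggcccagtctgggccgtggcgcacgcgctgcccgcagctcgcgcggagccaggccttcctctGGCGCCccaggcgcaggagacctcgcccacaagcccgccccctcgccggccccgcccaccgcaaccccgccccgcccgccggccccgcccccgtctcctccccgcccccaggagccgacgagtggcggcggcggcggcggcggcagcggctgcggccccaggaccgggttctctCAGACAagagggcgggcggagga

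Motifs were searched on both strands, counting the start site as position 0. The palindromic Smad box GTCTAGAC lies at position -4 of the Smad6 promoter. It occurs in 0.213% of the 32851 mouse promoters in the table and, of the 38 pathway genes with a promoter there, in 1, Smad6. The shorter Smad motif CAGACA lies at position -193 of Smurf1, where it reads TGTCTG on the strand shown, and at position 27 of Smurf2. It occurs in 21% of all promoters and in 10 of the 38 genes (26.3%). The GC-rich Smad motif GGCGCC, present in the Smurf2 promoter at -234 and -147, occurs in 11.9% of all promoters and in 14 of the 38 genes (36.8%), and it is its own reverse complement, as GTCTAGAC is. Genes with several promoters in the table count once where any of them holds the motif. The share of all promoters counts each promoter separately, so the shares are unlike measures and no excess is read from them. The cyclic AMP response element TGACGTCA (1.79% of all promoters) was found in 1 of the 38, Ltbp1, and the AP-1 site TGANTCA (7.81%) in 1, Ltbp3. These matches describe letters in a window, and no binding was measured here. The promoters of Inhba, Inhbb and Bmp4 held none of the 5 motifs in this window. Tgfbr3, Tgfb3, Smad2, Smad4, Bmp7, Bambi, Fst, Nog, Gdf6, Acvrl1, Smad7, Bmp2, Id1 and Skil had no entry.

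Among the 6 secreted antagonists, 1 was higher and 2 lower with Pint ASO (16.7% and 33.3%). With p53 siRNA 3 were higher and 1 lower (50% and 16.7%). Over all probe sets the shares were 8.49% and 10.7% with Pint ASO, and 7.97% and 8.96% with p53 siRNA. Nog, which codes for the BMP antagonist noggin, rose in both. It was 7.61, 7.49 and 7.76 in Pint ASO, against 7.04 and 7.29 in control ASO (0.46, SE 0.10, adjusted p = 0.00993), and 7.50, 7.35 and 7.34 in p53 siRNA, against 7.03, 7.11 and 7.11 in control siRNA (0.31, SE 0.09, adjusted p = 0.0361). Neither pair of groups overlapped. The Pint ASO call was lost with control ASO 1 omitted (adjusted p = 0.0842) and when the ASO arrays were fitted alone (adjusted p = 0.0846), and the p53 call in 7 of 11 fits that left out 1 array, any siRNA array or Pint ASO 1 (adjusted p = 0.0558 to 0.122), and without the filter (adjusted p = 0.0532).

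Fst, which codes for the activin antagonist follistatin, fell in both knockdowns by similar amounts. It was 11.19, 11.12 and 11.09 in Pint ASO, against 11.46 and 11.54 in control ASO (-0.36, SE 0.06, adjusted p = 0.00323). It was 11.24, 11.31 and 11.33 in p53 siRNA, against 11.73, 11.57 and 11.68 in control siRNA (-0.37, SE 0.06, adjusted p = 0.00143). No groups overlapped, and the difference between the effects was 0.01 (95% confidence interval -0.18 to 0.19, adjusted p = 0.979).

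Fstl1, a secreted follistatin-like glycoprotein gene, moved in opposite directions. It was 12.94, 12.91 and 12.81 in Pint ASO, against 13.32 in both control ASO arrays (-0.43, SE 0.05, adjusted p = 0.000458). It was 13.60, 13.59 and 13.56 in p53 siRNA, against 13.36, 13.39 and 13.40 in control siRNA (0.20, SE 0.05, adjusted p = 0.0145). Neither pair of groups overlapped, and the p53 call was lost with control siRNA 1 or p53 siRNA 2 omitted (adjusted p = 0.0513 and 0.0579).

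Chrd, which codes for the BMP antagonist chordin, was 7.69, 7.65 and 7.59 in p53 siRNA, against 7.45, 7.47 and 7.36 in control siRNA (0.22, SE 0.06, adjusted p = 0.0428). The groups did not overlap, but the call was lost in 9 of 11 fits that left out 1 array (adjusted p = 0.0523 to 0.144). With Pint ASO the change was 0.00. Grem1, which codes for the BMP antagonist gremlin 1, lay between 13.60 and 13.70 in all 11 arrays and changed by 0.04 with Pint ASO and by -0.01 with p53 siRNA. Fstl3, a follistatin relative, changed by -0.12 (adjusted p = 0.241) and -0.04 (adjusted p = 0.736).

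Latent TGF-beta binding proteins tether inactive TGF-beta to the matrix, and 2 of their 4 genes fell with Pint ASO (50%, beside 10.7% of all probe sets). Ltbp2, the family member that does not bind latent TGF-beta itself, was 11.64, 11.71 and 11.72 in Pint ASO, against 11.93 and 12.01 in control ASO (-0.28, SE 0.05, adjusted p = 0.00372). The groups did not overlap, and the call was lost when the ASO arrays were fitted alone (adjusted p = 0.0680). Ltbp3 changed by -0.22 (SE 0.06, adjusted p = 0.0276), a call lost with either control ASO array, Pint ASO 1 or Pint ASO 2 omitted (adjusted p = 0.0632 to 0.131). With p53 siRNA 0 of the 4 were called, with changes between -0.12 (Ltbp1, unadjusted p = 0.0164, adjusted p = 0.0810) and 0.13 (Ltbp3, unadjusted p = 0.0315).

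The Id genes code for inhibitors of basic helix-loop-helix factors and are the classical transcriptional readout of BMP signalling. None of the 4 was called in either knockdown by limma. With Pint ASO all 4 estimates were below 0, at -0.17 (Id1, adjusted p = 0.129), -0.20 (Id2, adjusted p = 0.0917), -0.22 (Id3, adjusted p = 0.0861) and -0.23 (Id4, adjusted p = 0.162), each with an unadjusted p between 0.0202 and 0.0493. In each of these genes the 3 Pint ASO arrays lay below both control ASO arrays. How many of all probe sets separate in this way was not counted, so the separation adds nothing to the tests. With p53 siRNA the estimates were -0.19 (Id1, unadjusted p = 0.0159, adjusted p = 0.0791), 0.03 (Id2), -0.01 (Id3) and -0.09 (Id4).

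The effects of the knockdowns were then set against each other gene by gene, as the Pint effect minus the p53 effect. This difference was called in 17 of the 51 genes, 8 higher and 9 lower, 15.7% and 17.6%, where 9.15% and 9.40% of all probe sets were called. The largest positive differences were in Bmp2 (1.02, SE 0.16, adjusted p = 0.00186), Smad7 (0.87, SE 0.08, adjusted p = 0.000112) and Inhba (0.78, SE 0.08, adjusted p = 0.000156), followed by Bmpr1b (0.67), Skil (0.64), Smurf1 (0.49), Smurf2 (0.46) and Smad2 (0.36). The largest negative ones were in Tgfbr3 (-0.79, SE 0.07, adjusted p = 9.41e-05), Bmp4 (-0.77, SE 0.08, adjusted p = 0.000165), Gdf6 (-0.70, SE 0.14, adjusted p = 0.00624) and Fstl1 (-0.63, SE 0.07, adjusted p = 0.000228), followed by Smad6 (-0.42), Inhbb (-0.41), Tgfb3 (-0.41), Ltbp3 (-0.35) and Tgfbr2 (-0.34).

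Of the 8 genes called in both knockdowns, 3 moved the same way, Nog upward and Inhbb and Fst downward. The other 5 moved in opposite directions, namely Smad7 and Smurf1 upward with Pint ASO and downward with p53 siRNA, and Tgfbr3, Smad6 and Fstl1 downward with Pint ASO and upward with p53 siRNA. The same split was not counted over all probe sets. The p53 siRNA calls of Smad7, Smad6, Fstl1 and Nog were each lost with certain single arrays omitted, while those of Tgfbr3, Smurf1, Inhbb and Fst held. The difference was called in 8 of 20 TGF-beta and activin genes and in 5 of 21 BMP genes. In the TGF-beta and activin branch 3 were higher and 5 lower (15% and 25%), a split that became 2 higher and 7 lower with median centring. In the BMP branch 2 were higher and 3 lower (9.52% and 14.3%), where 9.15% and 9.40% of all probe sets were called. Inhbb lost this call with control siRNA 3, p53 siRNA 3 or either control ASO array omitted (adjusted p = 0.0506 to 0.0679), Ltbp3 with control ASO 2 omitted (adjusted p = 0.0510), and Smad2 in 6 of 11 fits that left out 1 array (adjusted p = 0.0610 to 0.118).

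**Figure D5:**
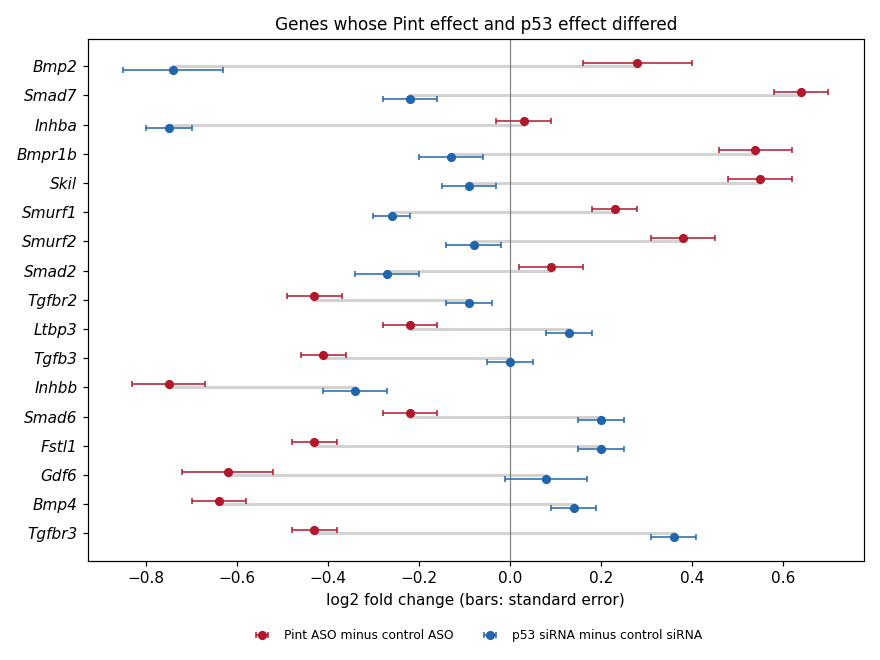
Log2 fold change (horizontal axis) in Pint ASO minus control ASO (red) and p53 siRNA minus control siRNA (blue) for the 17 genes whose effects differed, with standard errors as bars. Genes run from the largest positive difference, Bmp2 at 1.02, at the top to the largest negative one, Tgfbr3 at -0.79, at the bottom.

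The non-targeting controls themselves were compared because each knockdown had its own. Control ASO against control siRNA gave 4 higher and 3 lower calls among the 51 genes, 7.84% and 5.88%, where 2.29% and 1.73% of all probe sets were called. Inhba (0.27), Smad7 (0.27), Skil (0.31) and Smurf2 (0.31) were higher, and Tgfb3 (-0.27), Bmp4 (-0.30) and Inhbb (-0.35) were lower, with adjusted p-values between 0.0239 and 0.0456. All of these but Inhba were also called with Pint ASO against control ASO, in the same direction. These contrasts share the control ASO arrays, which enter them with opposite signs. With median centring 1 higher and 3 lower calls were left. Each of the 7 calls was lost in at least 4 of 11 fits that left out 1 array (adjusted p = 0.0513 to 0.216), and 0 were left with any 1 control siRNA array or control ASO 1 omitted.

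Other genes of the pathway were counted in the same way, from lists drawn up by function. The name of a list does not mean that its genes answer to that branch alone, and whether the pathway moved them was not tested. Their shares stand beside 8.49% higher and 10.7% lower over all probe sets with Pint ASO, and 7.97% higher and 8.96% lower with p53 siRNA. Among 20 tested TGF-beta target genes, 5 were higher (25%) and 8 lower (40%) with Pint ASO (median -0.16), and 9 were higher (45%) and 3 lower (15%) with p53 siRNA (median 0.10). With Pint ASO the matrix genes Tgfbi (-0.79), Col1a2 (-0.67), Col1a1 (-0.62) and Postn (-0.62) fell furthest, while Junb (0.71), Ccn2 (0.60), Pmepa1 (0.50), Ldlrad4 (0.22) and Tgif1 (0.22) rose. Pmepa1 and Ldlrad4 code for related membrane proteins that restrain TGF-beta receptor signalling, and Ccn2 for connective tissue growth factor. With p53 siRNA Postn (0.49), Col1a2 (0.41), Lox (0.34) and Col1a1 (0.32) rose furthest, while Ccn2 (-0.25), Pmepa1 (-0.20) and Cdkn2b (-0.15) fell. Col1a1 and Col1a2 are also fibroblast markers in the list given above.

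Among 14 tested BMP target genes, 4 were higher (28.6%) and 1 lower (7.14%) with Pint ASO, and 2 were higher (14.3%) and 4 lower (28.6%) with p53 siRNA. Hey2, a transcriptional repressor that Notch also induces, rose by 1.26 with Pint ASO (SE 0.10, adjusted p = 5.33e-05) and fell by 0.51 with p53 siRNA (SE 0.09, adjusted p = 0.00313). Klf10 (0.43), Hey1 (0.25) and Dlx3 (0.23) rose with Pint ASO and Atoh8 fell by 0.51. Gata3 (-0.59), Msx2 (-0.29) and Tbx3 (-0.24) fell with p53 siRNA, and Dlx5 (0.27) and Atoh8 (0.20) rose.

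Of 14 other ligand genes tested, 0 were higher and 2 (14.3%) lower with Pint ASO, beside 10.7% lower over all probe sets. These were Gdf5 (-0.37) and Bmp1 (-0.22), of which Bmp1 codes for a protease that cleaves chordin and procollagens. With p53 siRNA 0 were higher and 1 (7.14%) lower, Bmp8a (-0.79, SE 0.09, adjusted p = 0.000352). Of 10 other receptors and co-receptors, 1 was higher (Amhr2, 0.53) and 4 lower (40%) with Pint ASO, led by Cd109 (-0.41) and Scube3 (-0.28), with Lrrc32 (-0.19) and Rgma (-0.19), and 1 lower call was left when quantile normalization was applied again. With p53 siRNA 3 were lower (30%) and 1 higher. Cd109 (-0.56), Rgmb (-0.39) and Scube3 (-0.36) fell and Lrrc32 (0.22), which codes for a surface anchor of latent TGF-beta, rose.

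Of 18 other secreted regulators tested, 2 were higher (11.1%) and 8 lower (44.4%) with Pint ASO, and 5 were higher (27.8%) and 1 lower (5.56%) with p53 siRNA. Fbn2, which codes for the microfibril protein fibrillin 2, fell by 1.0 with Pint ASO (SE 0.06, adjusted p = 1.10e-05) and rose by 0.87 with p53 siRNA (SE 0.05, adjusted p = 5.20e-06). Emilin1, whose product hinders maturation of TGF-beta precursors, fell by 0.67 and rose by 0.65, and the BMP antagonist gene Chrdl1 fell by 0.64 and rose by 0.58. Sostdc1 (-0.57) also fell with Pint ASO, where Tll1 (0.95) and Tll2 (0.29), which code for tolloid-like proteases, rose. With p53 siRNA Htra1 (0.37) rose, and Tll1 fell by 0.31, a call lost with median centring, where 5 higher and 0 lower calls were left.

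Of 27 other intracellular regulators, 7 were higher (25.9%) and 3 lower (11.1%) with Pint ASO, and 1 was higher (3.7%) and 6 lower (22.2%) with p53 siRNA, with 1 higher and 3 lower after median centring. Tgfbrap1 (0.95), Ppp1r15a (0.88), Trim33 (0.65) and E2f4 (0.34) rose furthest with Pint ASO, and Tob1 (-0.30), Dab2 (-0.26) and Zeb1 (-0.22) fell. Ppp1r15a codes for GADD34, which brings a phosphatase to the type I receptor, and Trim33 for a ubiquitin ligase acting on Smad4. Wwp1 (-0.52), Ppm1a (-0.34), Rnf111 (-0.24) and Lemd3 (-0.23) fell furthest with p53 siRNA, and Zeb2 (0.14) rose. Rnf111 and Lemd3 both rose with Pint ASO, by 0.23 and 0.32.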

How the data were processed

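The authors profiled total RNA (300 ng per array) on Affymetrix arrays. The deposited values are log2 intensities per probe set, made by the authors with RMA, whose version is not given in the sources used here. The study's main and supplementary methods name different array models, and the probe sets fit the annotation of the model in the supplementary methods. Groups follow the labels. The number of arrays limits the precision. Of 34760 probe sets, 21640 carry 1 gene symbol. The filter kept 26038 probe sets, those above 6 (log2; 64 linear) on 2 or more arrays of any group. Where a gene had several, the probe set with the highest mean stands for it.

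One limma model (version 3.58.1, R 4.3.3) held the group means of all 11 arrays, with empirical Bayes and no trend, and an adjusted p under 0.05 (Benjamini-Hochberg) was a call. SE is the moderated standard error. The labels do not say that replicates were separate cultures, so p-values measure the spread between these arrays, which may be technical. The control ASO arrays carry other numbers in their descriptions than in their titles, and the titles' numbers are used here. The study describes the Pint arrays as done with 3 replicates, but the control ASO group holds 2 arrays here. Whether an array was left out is not stated.

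Members and lists were chosen with earlier results of these data known. By the naming rule, values of every array were given for called genes, up to 10 in each direction of a knockdown, and for Tgfb1, and up to 4 called genes in each direction, ties included, were named from each list. Some genes of the lists are not reported here. Alternatives were no filter, a filter in every group, quantile normalization applied again, median centring, a variance trend, each comparison fitted alone, a replicate block, the mean of a gene's probe sets, B over 3 and leaving out each array. Promoters were matched by symbol in RefSeq (GRCm38.p6).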

Additional observations from a re-analysis of the deposited data

Results flagged for a closer look

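The genes given here are those in which the Pint effect and the p53 effect differed by the test of the difference itself (limma, Pint effect minus p53 effect, adjusted over all probe sets tested). The difference was -0.79 for Tgfbr3, -0.77 for Bmp4, -0.70 for Gdf6, -0.63 for Fstl1, -0.42 for Smad6, -0.41 for Inhbb, -0.41 for Tgfb3, -0.35 for Ltbp3 and -0.34 for Tgfbr2. It was 0.36 for Smad2, 0.46 for Smurf2, 0.49 for Smurf1, 0.64 for Skil, 0.67 for Bmpr1b, 0.78 for Inhba, 0.87 for Smad7 and 1.02 for Bmp2. Groups of 2 or 3 arrays were too small for a test of single outlying arrays.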

How the results depend on the processing

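No called gene changed direction under any alternative run. With 1 array omitted, 15 of 20 calls with Pint ASO, 8 of 17 with p53 siRNA, 14 of 17 of the difference and 0 of 7 between the controls held in every such fit. Counts then ranged, for higher and lower, over 6 to 6 and 10 to 13 with Pint ASO, 1 to 7 and 7 to 11 with p53 siRNA, 7 to 8 and 7 to 10 for the difference, and 0 to 3 and 0 to 4 between the controls. With 1 control ASO array omitted, the array left was assumed to vary like the other groups.

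With B over 3 alone, without the fold-change limits that the study's supplementary methods add, the counts were 2 higher and 5 lower with Pint ASO, 0 and 1 with p53 siRNA, 2 and 3 for the difference, and 0 and 0 between the controls. Fitted alone, Pint ASO against control ASO gave 3 higher and 8 lower, and the controls gave 0 and 0. Without the filter, 4 genes were higher with p53 siRNA and 0 were higher in control ASO, where median centring left 1. The causes were not tested.

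The median of the TGF-beta and activin branch was -0.10 with Pint ASO with quantile normalization applied again, and -0.16 to -0.11 with 1 array omitted. With p53 siRNA it was -0.06 with quantile normalization applied again and -0.05 with median centring, and -0.08 to -0.06 with 1 array omitted. The BMP median was -0.04 with Pint ASO without the filter, which adds Bmp5, and -0.13 to -0.06 with 1 array omitted. With p53 siRNA it was 0.01 with quantile normalization applied again and 0.02 with median centring, and -0.02 to 0 with 1 array omitted.

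The labels do not say that a replicate number marks a shared batch, and the main comparisons used no pairing. Deviations of same-numbered arrays correlated at -0.284, -0.181 and -0.0371 in the siRNA groups. In the ASO groups they correlated at -0.0463 and -0.420 by title number and at 0.420 and 0.375 by description number, but the deviations of only 2 control ASO arrays mirror each other, so whether the ASO arrays were paired was not settled. With the number as a block, by title and by description, p53 siRNA gave 4 and 6 higher and 8 and 11 lower, Pint ASO 6 and 7 higher and 10 lower in both, the difference 7 higher and 9 lower in both, and the controls 0 and 1 higher and 0 and 1 lower.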
